A study of Mus musculus with 9 samples.

Results

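Granulosa cells taken from ovaries of mice given both cyclophosphamide and hydroxychloroquine were compared with granulosa cells of Control mice, gene by gene and library by library. The comparison used 6 of the 9 libraries of the series, Control 1 to 3 and CTX_HCQ 1 to 3, and the 13727 of 56748 genes that reached at least 1 FPKM in at least 3 of these 6 libraries. FPKM is the number of sequenced fragments per kilobase of exon, scaled to library size, so levels of different genes can be set side by side. All mice were wild-type female C57BL/6 animals, whose age is not given. CTX_HCQ mice received cyclophosphamide at 120 mg per kg, and hydroxychloroquine by mouth at 40 mg per kg each day, starting 7 days ahead of the cyclophosphamide and going on for 4 weeks after it. Control mice are called vehicle-treated in the design text and untreated in the labels. The third group, cyclophosphamide alone, was not part of this comparison. Whether each library is 1 mouse or a pool of mice is not stated in the labels, so the tests measure only the spread between libraries, which may be partly technical.

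Granulosa cells surround the oocyte in the follicle, make oestradiol from theca cell androgens with aromatase, and secrete inhibins, activins and anti-Müllerian hormone. When ovulation is triggered they switch on proteases and matrix genes, and afterwards they turn into luteal cells that make progesterone. Cyclophosphamide is an alkylating drug whose metabolites crosslink DNA, and it damages growing follicles. Hydroxychloroquine is a weak base that gathers in lysosomes and raises their pH, and it is used to dampen interferon and autoimmune responses. The study is titled for its interest in senescence of these cells and in cGAS, an enzyme that detects DNA in the cytosol, including DNA that leaves mitochondria.

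All 24 granulosa marker genes on the list passed the expression filter. Passing it does not by itself identify the cells, since 12 of 12 surface epithelium, 18 of 19 luteal and 15 of 17 oocyte genes also passed. Inha, which encodes the alpha subunit of inhibin, stood at 4776, 2865 and 2944 FPKM in Control and 3435, 3278 and 3790 FPKM in CTX_HCQ, with libraries given throughout in the order 1, 2, 3. Foxl2, a transcription factor that maintains granulosa identity, stood at 72.6, 85.3 and 92.1 FPKM in Control and 104, 96.3 and 79.3 FPKM in CTX_HCQ. Both were high in every library and overlapped between the groups. Markers of other cells were present too, among them oocyte, smooth muscle, endothelial and blood cell genes, and their values are given beside the results they move with. In bulk RNA of this kind, fewer cells of a type and less RNA per cell cannot be told apart.

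The libraries did not sort by group. Correlations of log2(FPKM + 1) across the tested genes averaged 0.961 among the Control libraries, 0.906 among the CTX_HCQ libraries and 0.939 between the groups. CTX_HCQ 1 correlated at 0.980 with Control 2 and at 0.979 with Control 3, but at 0.928 with CTX_HCQ 2 and 0.914 with CTX_HCQ 3. CTX_HCQ 2 and CTX_HCQ 3 were the least alike of all pairs, at 0.877. They also differed by gene length: the median gene of the shortest quartile lay 0.285 above its mean over the 6 libraries in CTX_HCQ 2 and at -0.275 in CTX_HCQ 3, on the log2 scale, and between -0.033 and 0.030 in the other libraries. Recovered reads ranged from 13372028 in CTX_HCQ 3 to 17133872 in Control 2. Mitochondrial transcripts made up 11.7% to 15.8% of FPKM.

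**Figure D1:**
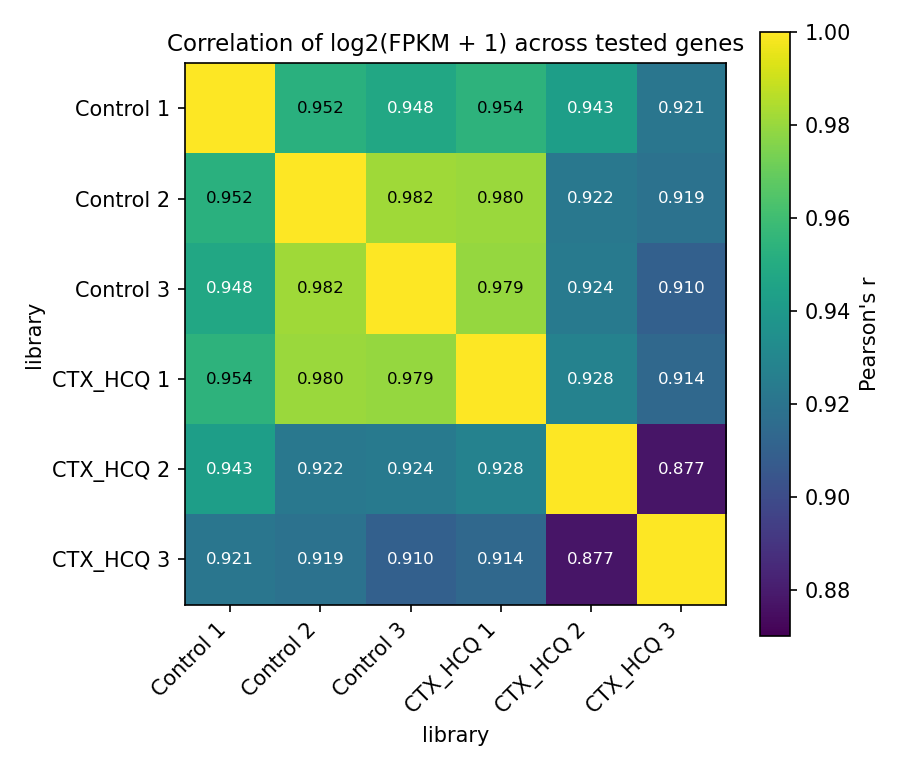
Pearson correlation of log2(FPKM + 1) over 13727 genes for each pair of the 6 libraries, with colour and number giving r. CTX_HCQ 1 sits with Control 2 and Control 3 (0.980 and 0.979), and the lowest value, 0.877, joins CTX_HCQ 2 and CTX_HCQ 3.

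No gene met the test. Limma on log2(FPKM + 1) gave 0 genes of 13727 (0%) at an adjusted p under 0.05, and the smallest adjusted p was 0.552. Limma voom on recovered reads also gave 0. At an unadjusted p under 0.05 limma gave 269 genes (1.96%) and voom 211. Leaving out Control 2 made the limma count 118, leaving out Control 3 made it 141, CTX_HCQ 3 437 and CTX_HCQ 1 991, and no gene passed adjustment in any of these. Values of the groups did not overlap in 865 genes (6.3%), of which 444 were higher (3.23%) and 421 lower (3.07%) in CTX_HCQ. These shares are the background for the genes without overlap named in each list below. With 3 libraries in each group, values can also separate by chance, so lack of overlap describes a gene and is not a call. All differences below are CTX_HCQ minus Control in log2(FPKM + 1), which understates changes of genes near or below 1 FPKM, and are given with their standard error (SE). The adjusted p by limma was 0.9999 for every gene named except Igha, so the text gives values and not calls.

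A log2 difference of 1 or more was seen in 109 genes, 52 higher and 57 lower in CTX_HCQ. In 37 of the 109 the groups did not overlap, against 6.3% of all tested genes. Choosing genes by a large difference itself raises this share, so the 2 cannot be compared directly. A difference is called carried by a library here when leaving that library out removes more than 50% of it. CTX_HCQ 3 carried 22 of the 109, CTX_HCQ 2 carried 10, Control 3 carried 4 and CTX_HCQ 1 carried 1, while Control 1 and Control 2 carried none. The remaining 72 (66.1%) rested on no single library. Over all tested genes, nearly all with differences under 1, 16.8% rested on no single library, CTX_HCQ 3 carried 38.3% and CTX_HCQ 2 37.2%. A second measure asked whether a library lay nearer to the mean of the opposite group than to the other libraries of its own. CTX_HCQ 1 did so in 70 of the 109 genes (64.2%) and Control 1 in 48 (44.0%), against 5 to 17 for each of the other 4 libraries. Among the 57 lower genes CTX_HCQ 1 lay nearer to Control in 44, and Control 1 nearer to CTX_HCQ in 34. Over all tested genes these shares were 71.2% for CTX_HCQ 1, 54.8% for Control 1 and 42.0% to 60.5% for the other 4 libraries. Among the 109 genes the other 4 libraries stood at 4.59% to 15.6%. The 109 were chosen for a large difference between the groups, which by itself lowers such shares. Shares of the 109 and of all genes therefore cannot be compared directly.

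**Figure D2:**
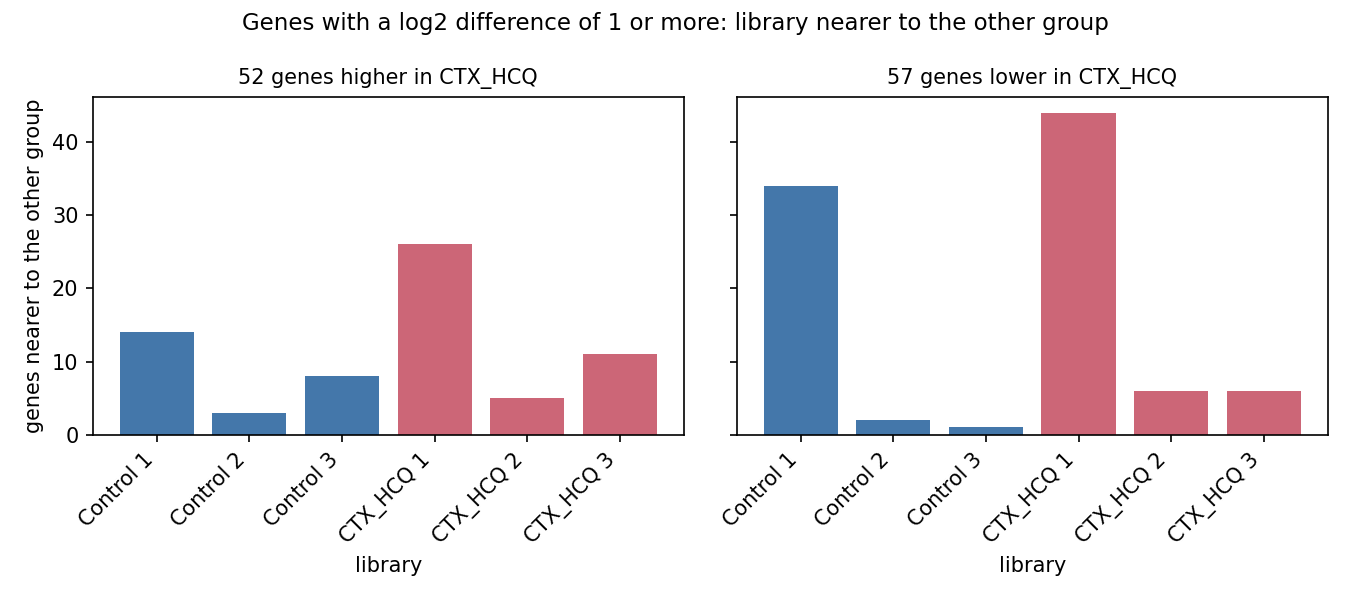
Number of genes (y axis) in which each library (x axis) lay nearer to the mean of the opposite group than to its own, for the 52 genes higher (left) and the 57 lower (right) by a log2 of 1 or more. CTX_HCQ 1 has the tallest bar on both sides, 26 and 44 genes, and Control 1 follows with 14 and 34.

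The gene with the smallest p encodes part of an antibody, and related plasma cell transcripts stood higher with it. Igha (ENSMUSG00000095079), the constant region of immunoglobulin A heavy chains, stood at 5.896, 3.95 and 2.501 FPKM in Control and 19.5, 25.04 and 29.04 FPKM in CTX_HCQ, a log2 difference of 2.36 (SE 0.28) with an adjusted p of 0.552 by limma. Every CTX_HCQ library was above every Control library, and no library carried the difference: it ran from 2.11 to 2.599 when each was left out in turn. Over all alternatives the difference ran from 1.70 to 2.64, higher in CTX_HCQ each time, and the adjusted p by limma from 0.0684 to 1. Igkc, the kappa light chain constant region, stood at 18.7, 24.5 and 11.5 FPKM in Control and 25.3, 80.4 and 80.1 FPKM in CTX_HCQ, a difference of 1.59 (SE 0.48). Here CTX_HCQ 2 and CTX_HCQ 3 were far above the rest and CTX_HCQ 1 only just above Control 2. Jchain, which joins antibody units into polymers, stood at 1.36, 0.93 and 0.386 FPKM in Control and 2.23, 3.84 and 5.13 FPKM in CTX_HCQ, a difference of 1.31 (SE 0.30), again without overlap. Iglc1, a lambda constant region, stood at 0.779, 0.982 and 1.202 against 2.39, 2.52 and 3.44 FPKM on at most 24 reads a library. Igha, Igkc and Iglc1 were chosen after their values were seen. Ighm, the constant region of immunoglobulin M, did not follow them, with 9.53, 14.5 and 7.37 FPKM in Control and 10.7, 7.86 and 14.9 FPKM in CTX_HCQ and overlapping groups. The mice given cyclophosphamide alone held 8.601, 10.1 and 21.8 FPKM of Igha, so that CTX 1 and CTX 2 lay between the groups compared here and CTX 3 within the CTX_HCQ range.

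Gzma and Ccl5, transcripts of T and natural killer cells, lay on the other side. Gzma, a granzyme of cytotoxic lymphocytes, stood at 3.04, 3.05 and 2.29 FPKM in Control and 0.4796, 1.36 and 0.972 FPKM in CTX_HCQ, a difference of -0.99 (SE 0.24). Ccl5, a chemokine made by these cells and induced by interferon, stood at 4.48, 5.28 and 3.41 FPKM in Control and 1.57, 2.21 and 1.09 FPKM in CTX_HCQ, a difference of -1.05 (SE 0.23). All 3 CTX_HCQ libraries were below all 3 Control libraries for both genes, and no library carried either difference. Trbc2, a T cell receptor constant region, stood at 4.51, 6.85 and 2.81 against 1.74, 3.39 and 0.848 FPKM, with CTX_HCQ 2 above Control 3, so its groups overlapped. Of the 16 genes on the lymphocyte list 8 passed the filter, with 3 higher and 5 lower, 2 higher and 1 lower without overlap (3.23% and 3.07% of all genes), and a median of -0.27, which turned to 0.84 among members with a mean of at least 5 FPKM. The summed level of all 16 listed genes, untested ones included, ran from 33.7 to 70.8 FPKM in Control and from 48.4 to 113.6 FPKM in CTX_HCQ. The B cell receptor genes Cd79a and Cd79b were on the same list, with differences of -0.20 and -0.34.

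**Figure D3:**
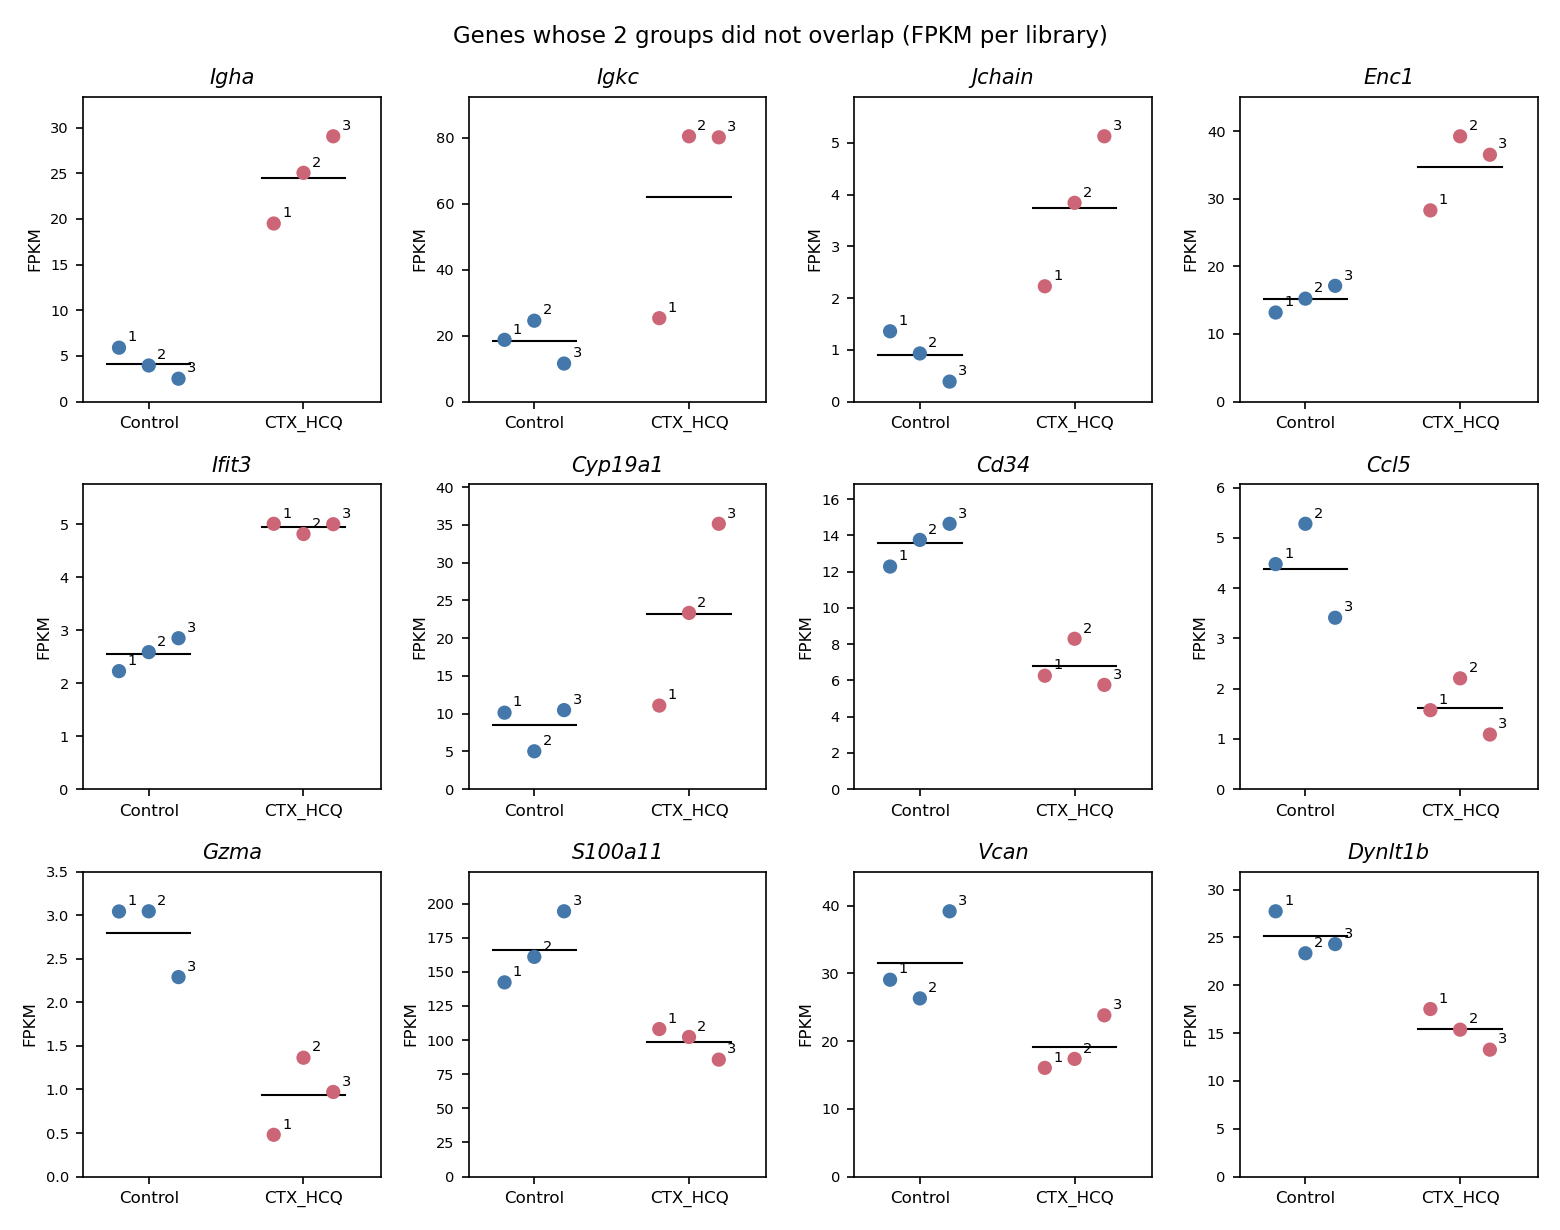
FPKM (y axis) of 12 genes in the Control (blue) and CTX_HCQ (red) libraries, numbered 1 to 3, with black lines at the group means. In each panel the groups do not overlap, though the margin is narrow for Igkc and Cyp19a1, where CTX_HCQ 1 stands at 25.3 and 11.1 FPKM.

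Among the other genes higher in CTX_HCQ, Enc1, which encodes an actin-binding Kelch protein, had the smallest p. It stood at 13.2, 15.2 and 17.1 FPKM in Control and 28.3, 39.2 and 36.5 FPKM in CTX_HCQ, a difference of 1.14 (SE 0.20), and 1.04 to 1.27 with each library left out. All CTX_HCQ libraries, CTX_HCQ 1 included, were well above Control. Clk4, a kinase of splicing factors, stood at 16.1, 16.5 and 17.8 FPKM in Control and 23.4, 24.3 and 23.99 FPKM in CTX_HCQ, a small but even difference of 0.49 (SE 0.16). Pdgfa, a growth factor chain that acts on stromal and theca cells, stood at 8.91, 7.505 and 10.7 against 12.1, 17.1 and 14.9 FPKM, a difference of 0.65 (SE 0.20). Doc2b, a calcium sensor of vesicle release, stood at 6.09, 6.11 and 6.12 against 9.96, 7.88 and 8.95 FPKM, a difference of 0.48 (SE 0.16). In these genes every CTX_HCQ library stood above every Control library.

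Dusp12, a dual-specificity phosphatase, differed by 0.55 (SE 0.18), and Wdyhv1, an amidase that acts on N-terminal glutamine, by 0.43 (SE 0.15). Yjefn3 differed by 0.93 (SE 0.25), Smim10l2a by 0.63 (SE 0.19), Tmem114 by 0.57 (SE 0.19) and Dcaf12l1 by 0.50 (SE 0.17). None of these 6 had overlapping groups, and none was carried by 1 library. Plppr3 differed by 0.75 (SE 0.26) with overlap, since CTX_HCQ 1 at 5.11 FPKM lay below Control 1 at 5.17. Gadd45g, a gene induced by stress and growth arrest, stood at 13.3, 14.8 and 16.3 against 24.1, 62.3 and 19.6 FPKM, a difference of 1.02 (SE 0.40) in which CTX_HCQ 2 was the highest by far. Wfdc17, a small secreted protein, differed by 0.95 (SE 0.33), also with CTX_HCQ 2 highest. Chchd2-ps differed by 1.12 (SE 0.23) on at most 19 reads, and its reads may belong to the parent gene.

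Of the lower genes Cd34 had the smallest p. This surface glycoprotein of progenitor, endothelial and stromal cells stood at 12.3, 13.8 and 14.6 FPKM in Control and 6.25, 8.29 and 5.75 FPKM in CTX_HCQ, a difference of -0.92 (SE 0.18), with every CTX_HCQ library below every Control library. S100a11, a calcium-binding protein, stood at 142, 161 and 194 FPKM in Control and 108, 102 and 85.7 FPKM in CTX_HCQ, a difference of -0.74 (SE 0.24). Vcan, the proteoglycan versican of the follicle matrix, stood at 29.1, 26.3 and 39.2 FPKM in Control and 16.1, 17.4 and 23.8 FPKM in CTX_HCQ, a difference of -0.69 (SE 0.23). Both were lower in each CTX_HCQ library than in any Control library. Slpi, a protease inhibitor, stood at 5.89, 13.04 and 10.4 against 4.75, 5.48 and 4.53 FPKM and differed by -0.81 (SE 0.27). Nusap1, a mitotic spindle protein, stood at 8.45, 9.49 and 8.56 against 6.57, 4.85 and 6.78 FPKM and differed by -0.49 (SE 0.17). These 5 differences were shared by CTX_HCQ 1 to 3 and carried by no library.

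Hsd17b11, a lipid droplet dehydrogenase, differed by -0.70 (SE 0.25), Tmem258, a subunit of the enzyme that adds sugars to new proteins, by -0.69 (SE 0.23), Them6 by -0.66 (SE 0.23) and Ubald2 by -0.57 (SE 0.20). Dynlt1b, a dynein light chain with near-identical copies, differed by -0.68 (SE 0.18), Atp5g2, a subunit c gene of ATP synthase with close copies, by -0.64 (SE 0.22), and Rab7-ps1 by -0.82 (SE 0.22), so these 3 are uncertain as single genes. All 7 had groups that did not overlap. Ifitm2, an interferon-induced membrane protein, stood at 135, 148 and 149.9 against 119.9, 46.5 and 88.95 FPKM, a difference of -0.85 (SE 0.35) with CTX_HCQ 2 the lowest. Frat2, which binds the kinase GSK3, stood at 19.4, 16.4 and 21.2 against 13.2, 15.8 and 3.23 FPKM, and its difference of -0.99 (SE 0.49) was carried by CTX_HCQ 3: it was -0.36 without that library.

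Some of the largest differences came from genes whose groups overlapped. Apln, which encodes the peptide apelin, stood at 27.6, 77.1 and 83.8 FPKM in Control and 63.6, 7.92 and 4.18 FPKM in CTX_HCQ, a difference of -1.996 (SE 0.90). Adamts1, a protease that cleaves versican and is induced at ovulation, stood at 20.99, 135 and 203 FPKM in Control and 132, 12.4 and 7.21 FPKM in CTX_HCQ, a difference of -1.79 (SE 1.17). In both genes CTX_HCQ 1 sat within the Control range, and Control 1 sat nearer in FPKM to CTX_HCQ 2 and CTX_HCQ 3. On the log2 scale the latter held for Adamts1 and not for Apln. Without CTX_HCQ 1 the differences were -3.08 for Apln and -3.01 for Adamts1, and without Control 1 they were -2.499 and -2.77. The same split was seen in Spp1, the matrix protein osteopontin, at 2.93, 83.3 and 182 against 51.97, 5.17 and 2.89 FPKM with a difference of -1.86 (SE 1.502). It was carried by Control 3 and was -0.75 without that library. Tinagl1, a matrix protein, stood at 10.1, 105 and 150.5 against 97.1, 9.97 and 3.56 FPKM, and Cxcr4, a chemokine receptor, at 6.48, 51.1 and 68.1 against 70.8, 3.54 and 1.69 FPKM. Their differences of -1.73 (SE 1.297) and -1.65 (SE 1.31) were carried by CTX_HCQ 3 and were -0.78 and -0.73 without it.

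On the higher side the libraries split the same way. Cyp17a1, the androgen-making enzyme of theca cells, stood at 16.6, 0.584 and 0.986 FPKM in Control and 0.958, 24.2 and 45.5 FPKM in CTX_HCQ, a difference of 1.79 (SE 1.31) and of 0.88 without CTX_HCQ 3, which carried it. Control 1 held 16.6 FPKM, while CTX_HCQ 1, Control 2 and Control 3 were all below 1. Scgb3a1, a secretoglobin, followed with 6.01, 0.0932 and 0.304 against 0.202, 9.28 and 17.4 FPKM and 1.503 (SE 1.08), likewise carried by CTX_HCQ 3. Grem1, an antagonist of bone morphogenetic proteins, stood at 5.68, 0.4299 and 1.38 against 1.06, 3.77 and 24.8 FPKM, and its difference of 1.16 (SE 0.93) was 0.15 without CTX_HCQ 3. Inhba, the beta A subunit of activin and inhibin, stood at 114, 41.6 and 82.8 against 82.6, 173 and 440.2 FPKM, a difference of 1.32 (SE 0.63) that was 0.70 without CTX_HCQ 3. Col6a4, a collagen VI chain, differed by 1.04 (SE 0.46) with 8.99, 5.83 and 2.87 against 6.11, 19.2 and 15.1 FPKM. CTX_HCQ 1 was within the Control range for all 5 of these genes.

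**Figure D4:**
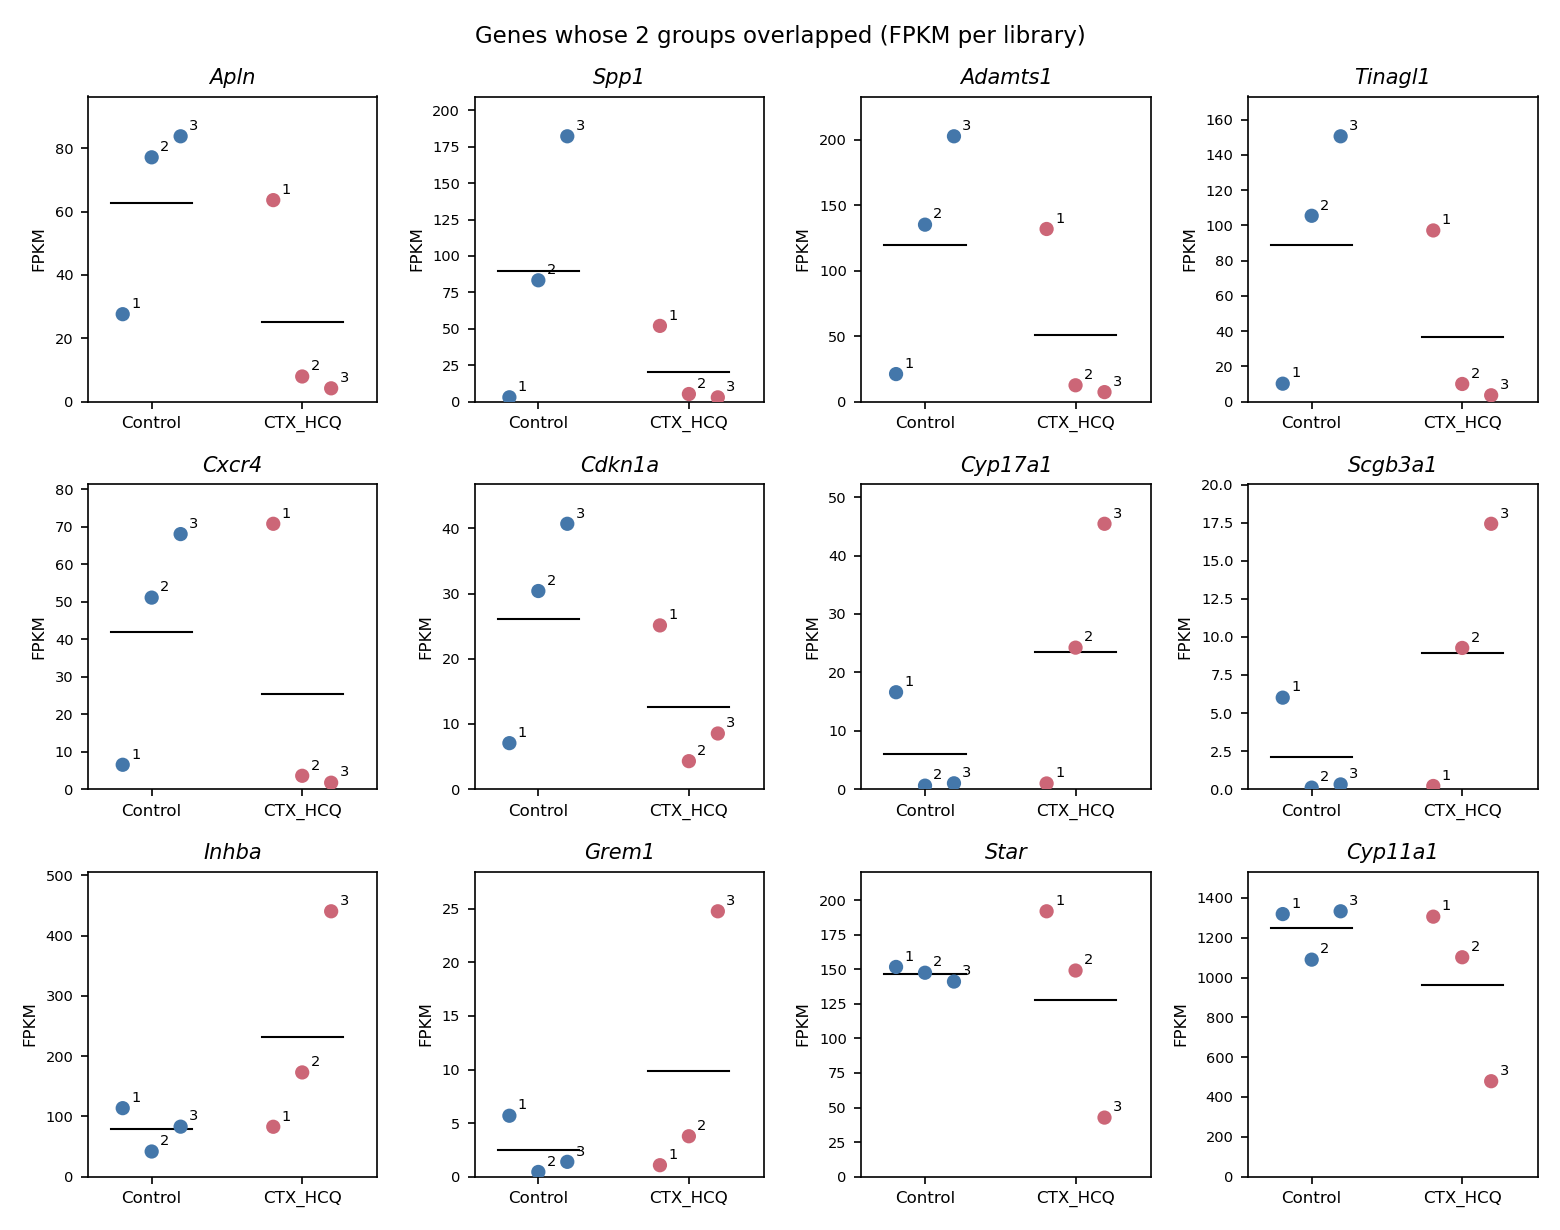
FPKM (y axis) of 12 genes in the Control (blue) and CTX_HCQ (red) libraries, numbered 1 to 3, with black lines at the group means. In the first 6 panels CTX_HCQ 1 lies far above CTX_HCQ 2 and CTX_HCQ 3, and in the last 2 panels, Star and Cyp11a1, CTX_HCQ 3 alone is low.

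The granulosa list had 19 higher and 5 lower of 24 tested genes, where 47.6% of all tested genes were higher, and a median of 0.21 against -0.01 over all genes. None passed the test. Groups did not overlap in 5 genes, all higher in CTX_HCQ, against 3.23% of all genes: Cyp19a1, Nr5a1, Nap1l5, Inhbb and Hsd17b1. Cyp19a1, the aromatase gene, stood at 10.1, 5.004 and 10.5 FPKM in Control and 11.1, 23.3 and 35.1 FPKM in CTX_HCQ, a difference of 1.26 (SE 0.43). CTX_HCQ 3 was highest, CTX_HCQ 2 next, and CTX_HCQ 1 within 1 FPKM of Control 3. Nr5a1, the steroidogenic factor that drives such enzymes, stood at 46.1, 40.8 and 46.1 against 47.2, 75.7 and 78.7 FPKM and differed by 0.56 (SE 0.25). Inhbb, the beta B subunit, stood at 471, 336 and 512 against 534, 659 and 734 FPKM, and Hsd17b1, which makes oestradiol from oestrone, at 281, 301 and 264 against 349, 368 and 359.6 FPKM.

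Other granulosa genes were less even. Ihh, a hedgehog ligand sent to theca cells, stood at 52.2, 29.1 and 49.3 against 44.2, 105 and 121 FPKM and differed by 0.95 (SE 0.42), with overlap through CTX_HCQ 1. Amh, the hormone of small growing follicles, stood at 379, 346 and 539.6 FPKM in Control and 402, 298 and 189 FPKM in CTX_HCQ, a difference of -0.55 (SE 0.37) that was -0.26 without CTX_HCQ 3. Fshr, the receptor of follicle-stimulating hormone, stood at 45.7, 25.6 and 29.9 against 20.9, 26.6 and 33.4 FPKM and Foxl2 differed by 0.16 (SE 0.22), both carried by Control 1 and by CTX_HCQ 1. The median of the list rested on CTX_HCQ 3 and was 0.01 without it, and 0.09 without Control 3. By library it was 0.41 in CTX_HCQ 3 and between -0.20 and -0.03 in the rest.

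Luteal and progesterone genes leaned lower, with 5 higher and 13 lower of 18 and a median of -0.31, none of them with separate groups. The median turned to 0.17 with library weights, which give less weight to libraries that stand apart. Star, which brings cholesterol into mitochondria, stood at 152, 148 and 141 FPKM in Control and 192, 149 and 42.7 FPKM in CTX_HCQ, and Cyp11a1, the side-chain cleavage enzyme, at 1319, 1090 and 1333 FPKM in Control and 1306, 1102 and 479 FPKM in CTX_HCQ. Both were low in CTX_HCQ 3 alone, and without it the differences of -0.45 (SE 0.53) and -0.49 (SE 0.46) were 0.20 and -0.05. The list median was -0.02 without CTX_HCQ 3. Parm1, a membrane mucin, stood at 13.6, 59.6 and 75.4 against 55.1, 7.03 and 8.91 FPKM, and Oxtr, the oxytocin receptor, at 62.2, 57.4 and 70.5 against 82.9, 29.6 and 13.1 FPKM, whose difference CTX_HCQ 3 carried. Lhcgr, the receptor of luteinizing hormone, stood at 252, 84.6 and 113 against 76.1, 111 and 62.5 FPKM, and its difference of -0.72 (SE 0.43) was carried by Control 1. Pcsk6, a proprotein convertase, differed by -0.66 (SE 0.26) with CTX_HCQ 1 inside the Control range.

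Of 20 genes on the ovulation list 9 passed the filter, and Ptgs2, Pgr, Has2 and Areg were among those that did not. The tested members had 0 higher and 9 lower, a median of -0.45, and -0.87 to -0.32 with each library left out. Their differences ran from -1.79 to -0.07, and they include Star, which is also on the luteal list. By library the list medians were 0.25, 0.37 and 0.69 in Control and 0.61, -0.44 and -0.79 in CTX_HCQ. The lower level thus belonged to CTX_HCQ 2 and CTX_HCQ 3, while CTX_HCQ 1 stood within the Control range. Of the 9 only Vcan had separate groups, against 3.07% of all genes lower without overlap. Runx1, a transcription factor switched on by the ovulatory surge, stood at 4.74, 24.9 and 27.8 against 18.9, 3.23 and 5.701 FPKM, and its relative Runx2 at 24.1, 19.01 and 27.1 against 19.5, 11.7 and 6.19 FPKM. For Runx1 CTX_HCQ 1 was near Control 2, and Control 1 was in the range of CTX_HCQ 2 and CTX_HCQ 3. Theca genes had 6 higher and 4 lower of 10 and a median of 0.06. The hedgehog receptor genes Ptch1 and Smo differed by -0.28 (SE 0.28) and -0.23 (SE 0.23), and Plin2, a lipid droplet protein, by 0.25 (SE 0.24). All 3 were carried by CTX_HCQ 2, with -0.01, -0.03 and 0.04 without it, and Ptch1 also by Control 1. The median of the theca list was -0.05 without CTX_HCQ 2.

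Interferon-stimulated genes respond to type I and II interferon through STAT and IRF factors. Of 34 on the list, 25 were tested, 17 higher and 8 lower, with a median of 0.06. The groups did not overlap in 4 higher genes, Ifit3, Isg15, Gbp3 and Ifit1, and in 1 lower gene, Ccl5, against 3.23% and 3.07% of all genes. Ifit3, an antiviral RNA-binding protein, stood at 2.23, 2.59 and 2.85 FPKM in Control and 5.01, 4.82 and 5.004 FPKM in CTX_HCQ, a difference of 0.74 (SE 0.16) shared evenly by the 3 CTX_HCQ libraries. Gbp3, a guanylate-binding protein, stood at 3.103, 3.29 and 5.02 against 5.36, 7.15 and 5.77 FPKM, a difference of 0.57 (SE 0.21). Isg15, a ubiquitin-like protein, stood at 2.68, 3.73 and 3.97 against 4.03, 11.1 and 5.01 FPKM, a difference of 0.69 (SE 0.33) that was carried by CTX_HCQ 2 and was 0.31 without it. Ifit1 stood at 1.75, 1.301 and 1.76 against 2.29, 1.83 and 3.85 FPKM. The rest of the list was mixed, and its median was -0.03 without Control 1 and -0.04 with library weights.

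Genes of cytosolic DNA sensing lay between -0.14 and 0.36. The list had 5 higher and 7 lower of 12 tested members and a median of -0.05, which was 0.02 with library weights. Cgas itself did not pass the filter and had 111, 70 and 30 reads in Control and 51, 57 and 59 reads in CTX_HCQ. Sting1, the adaptor that receives the cGAS signal, stood at 3.65, 3.25 and 3.85 against 4.005, 2.61 and 3.07 FPKM, Irf3, the factor it activates, at 19.6, 27.2 and 27.9 against 26.8, 33.3 and 21.7 FPKM, and both overlapped. Tbk1, the kinase between them, stood at 6.15, 7.95 and 8.75 against 8.71, 10.1 and 11.2 FPKM, a difference of 0.36 (SE 0.19) in which CTX_HCQ 1 lay just below Control 3. Ikbke, a related kinase, differed by 0.27 (SE 0.24) and was carried by CTX_HCQ 3. Ticam1 and Nfkb1, an adaptor and a subunit of NF-kappa B, differed by -0.14 (SE 0.16), carried by Control 3, and 0.15 (SE 0.16), carried by Control 1.

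Targets of p53 stood mostly lower, 3 higher and 19 lower of 22, with a median of -0.16, and -0.09 to -0.21 with each library left out. The libraries did not split by group, with medians of -0.224, 0.088 and 0.268 in Control and 0.092, -0.189 and -0.187 in CTX_HCQ. Control 1 was the lowest, and CTX_HCQ 1 stood level with Control 2. In 18 of the 22 genes Control 1 lay nearer to CTX_HCQ, against 54.8% of all genes. Cdkn1a, the gene of p21, which halts the cell cycle, stood at 7.05, 30.4 and 40.7 FPKM in Control and 25.1, 4.28 and 8.53 FPKM in CTX_HCQ. CTX_HCQ 2 was below Control 1, CTX_HCQ 3 just above it, and CTX_HCQ 1 nearer to Control 2. The difference of -1.001 (SE 0.74) was -0.47 without CTX_HCQ 2. Ccng1, a cyclin induced by p53, stood at 19.4, 31.2 and 40.3 against 26.3, 16.2 and 14.1 FPKM and Zmat3, an RNA-binding target, at 2.82, 5.71 and 5.33 against 4.75, 2.54 and 3.07 FPKM, both with CTX_HCQ 1 above CTX_HCQ 2 and CTX_HCQ 3. Bbc3, the cell death protein PUMA, differed by -0.35 (SE 0.29) and was carried by Control 3 and by CTX_HCQ 3. Trp53 itself stood at 21.8, 35.02 and 33.7 against 28.5, 25.7 and 22.2 FPKM.

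The senescence list had 5 higher and 12 lower of 17 and a median of -0.13, or -0.03 without CTX_HCQ 3 and 0.01 with library weights. Cdkn2a, which encodes p16, was below the filter with 1 to 18 reads a library. Glb1, the beta-galactosidase stained in senescent cells, stood at 33.2, 41.1 and 34.5 against 39.7, 31.99 and 21.2 FPKM and Lmnb1, the nuclear lamin lost in such cells, at 34.6, 43.5 and 39.1 against 44.8, 35.5 and 28.9 FPKM. Neither separated the groups, and both were lowest in CTX_HCQ 3. The cell cycle inhibitors Cdkn1b and Cdkn2c differed by -0.38 (SE 0.27) and -0.23 (SE 0.21), and by -0.19 and -0.03 without CTX_HCQ 3, and the chromatin protein Hmga1 by -0.57 (SE 0.35).

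Genes of the lysosome, where hydroxychloroquine gathers, had 4 higher and 35 lower of 39 tested members and a median of -0.27. It ran from -0.46 without CTX_HCQ 1 to -0.15 without CTX_HCQ 3, and was 0.006 with library weights. The lower level belonged to CTX_HCQ 2 and CTX_HCQ 3, with medians of -0.22 and -0.38 around the mean, while CTX_HCQ 1 stood at 0.12 and lay nearer to Control in 36 of the 39 genes, against 71.2% of all genes. Groups did not overlap in 2 genes, both lower, against 3.07% of all genes. One was Neu1, a sialidase, at 15.97, 19.1 and 18.7 against 15.96, 13.5 and 11.8 FPKM, where CTX_HCQ 1 lay only just below Control 1. Autophagy genes, which feed the lysosome, had 9 higher and 17 lower of 26, a median of -0.09, and 0.05 without CTX_HCQ 3. Gabarapl1, a protein of the autophagosome membrane, stood at 50.1, 58.9 and 60.7 against 48.2, 49.5 and 37.4 FPKM and did not overlap. Atg9a, a lipid scramblase, differed by -0.55 (SE 0.37) through CTX_HCQ 2, and Optn, a cargo receptor, by 0.24 (SE 0.18) through CTX_HCQ 1. Rb1cc1, of the initiating kinase complex, differed by 0.32 (SE 0.19).

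Antioxidant genes had 6 higher and 19 lower of 25 and a median of -0.18, which turned to 0.14 without CTX_HCQ 3. Cat, catalase, stood at 38.7, 40.2 and 38.5 against 32.3, 33.6 and 23.7 FPKM, lower in each CTX_HCQ library than in any Control library, a difference of -0.40 (SE 0.20). Gsr, glutathione reductase, differed by -0.40 (SE 0.25). Gsta4, a glutathione transferase, differed by 0.65 (SE 0.46) and Keap1, the inhibitor of NRF2, by -0.33 (SE 0.23), both carried by CTX_HCQ 2.

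Nuclear genes of the respiratory chain and ribosomal protein genes were split by library and not by group. The 60 respiratory chain genes had a median of -0.01, whose sign changed with the scaling, and library medians of 0.61 in CTX_HCQ 2 and -0.76 in CTX_HCQ 3. The 50 ribosomal protein genes had a median of 0.01, with 0.84 and -0.77 in these libraries. The same libraries differed by gene length as given above. With the length trend removed the median differences between the groups were -0.001 and 0.02. These group values do not describe the split between the libraries, whose relation to gene length was not tested. There were 28 higher and 32 lower respiratory chain genes, and Cox7a2, of cytochrome oxidase, had separate groups at 93.5, 77.8 and 83.8 against 69.1, 64.2 and 45.4 FPKM. Ndufa3, Ndufb4 and Sdhd, of the first and second complexes, differed by -0.53 (SE 0.26), -0.38 (SE 0.27) and -0.38 (SE 0.27), and CTX_HCQ 3 carried Ndufb4 and Sdhd (-0.12 and -0.13 without it). Ribosomal protein genes had 28 higher and 22 lower, and Rplp0, of the ribosomal stalk, stood at 819.7, 725 and 762 against 711, 745 and 381 FPKM.

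The 13 genes of the mitochondrial genome had 4 higher and 9 lower and a median of -0.17. Control 3 and CTX_HCQ 1 each carried this median, which was -0.076 and -0.055 without them. By library the medians were 0.242, -0.142 and 0.122 in Control and -0.371, -0.056 and 0.235 in CTX_HCQ. In 1 of the 13 genes, against 3.07% of all genes, values were lower without overlap. This was mt-Co1 of cytochrome oxidase, at 18460, 16670 and 16030 against 14710, 15010 and 13290 FPKM. Their summed level ran from 35940 to 43120 FPKM in Control and from 32800 to 36270 FPKM in CTX_HCQ. mt-Nd4, of the first complex, stood at 2588, 2444 and 2757 against 1944, 1634 and 2957 FPKM, and mt-Atp6, of ATP synthase, at 223, 130.5 and 189 against 81.6, 70.8 and 246 FPKM. Both overlapped between the groups and were carried by CTX_HCQ 2. mt-Co2, of cytochrome oxidase, differed by -0.45 (SE 0.41), also with overlap, and was -0.16 without Control 1 and -0.09 without CTX_HCQ 1. mt-Nd6, encoded on the other strand, stood at 1259, 842 and 1320 against 1115, 2480 and 1896 FPKM and differed by 0.64 (SE 0.45), with CTX_HCQ 1 inside the Control range. Tfam, which packs and transcribes mitochondrial DNA, stood at 11.4, 10.7 and 12.01 against 12.3, 16.5 and 7.92 FPKM.

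Glycolysis and hypoxia genes had 2 higher and 20 lower of 22 and a median of -0.38, or -0.19 without CTX_HCQ 3. Control 1 lay nearer to CTX_HCQ in 20 of the 22 (54.8% of all genes) and CTX_HCQ 1 nearer to Control in 20 (71.2% of all genes), with library medians of -0.45 in Control 1 and 0.33 in CTX_HCQ 1. Slc2a1, the glucose transporter, stood at 19.7, 21.9 and 23.2 against 18.8, 16.97 and 12.2 FPKM. It was the only member whose groups did not overlap, against 3.07% of all genes lower without overlap. Pgam1, phosphoglycerate mutase, stood at 112, 219 and 237 against 198, 111 and 61.4 FPKM, and Gpi1, glucose phosphate isomerase, at 59.6, 69.7 and 71.03 against 63.8, 57.7 and 35.8 FPKM, both lowest in CTX_HCQ 3. Pfkfb3, which sets the pace of glycolysis, differed by -0.58 (SE 0.41) and was carried by Control 3.

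Cholesterol synthesis genes had 6 higher and 19 lower of 25 and a median of -0.12, which was 0.19 without Control 1 and 0.04 without CTX_HCQ 3. Fdps, farnesyl diphosphate synthase, at 2.95, 2.62 and 2.796 against 2.08, 1.48 and 2.42 FPKM, and Lpin1, a lipid phosphatase, at 3.74, 4.002 and 3.64 against 3.13, 2.14 and 2.99 FPKM, were lower without overlap. They were 2 of the 25, against 3.07% of all genes. Dhcr7, the last reductase of the pathway, stood at 45.5, 60.2 and 71.6 against 61.8, 28.3 and 16.02 FPKM, with CTX_HCQ 1 in the Control range. Collagen and matrix genes had 6 higher and 24 lower of 30 and a median of -0.23, between -0.25 and -0.13 with each library left out. Fn1, fibronectin, stood at 14.7, 14.5 and 13 against 11.8, 8.297 and 11.7 FPKM and had separate groups. Col4a1 and Col4a2, the basement membrane chains, differed by -0.78 (SE 0.45) and -0.82 (SE 0.48), both carried by CTX_HCQ 3. Loxl2, which crosslinks collagen, stood at 18.7, 59.2 and 92.3 against 36.5, 8.34 and 20.6 FPKM, a difference of -1.29 (SE 0.67) carried by no library.

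Cell cycle genes had 9 higher and 25 lower of 34, a median of -0.12, and -0.04 without Control 2. Plk1, a mitotic kinase, stood at 19.8, 23.2 and 21.3 against 17.2, 17.2 and 18.4 FPKM and did not overlap. It was 1 of 2 members that were lower without overlap, against 3.07% of all genes. Cenpe and Cenpf, large kinetochore proteins, differed by 0.55 (SE 0.26) and 0.51 (SE 0.29), highest in CTX_HCQ 3, which carried Cenpf, and Tyms, thymidylate synthase, by -0.28 (SE 0.19). Genes of crosslink repair and damage checkpoints had 12 higher and 17 lower of 29 and a median of -0.02, whose sign changed with the scaling, and none had separate groups. Fanci, of the Fanconi pathway, differed by -0.46 (SE 0.31) through CTX_HCQ 2.

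Heat shock chaperones leaned higher, 16 higher and 3 lower of 19, with a median of 0.16 that was -0.01 without CTX_HCQ 2. Bag3, a co-chaperone, stood at 20.9, 23.8 and 21.2 against 24.5, 26.7 and 27.3 FPKM, and Hsp90aa1, the inducible HSP90, at 106, 110.1 and 115 against 118, 169 and 118 FPKM, both without overlap. They were 2 of the 19, against 3.23% of all genes. Chordc1, an HSP90 partner, differed by 0.50 (SE 0.27), Hspb8, a small heat shock protein, by -0.38 (SE 0.23) through CTX_HCQ 3, and Hspa1a, which has the near-identical copy Hspa1b, by 0.61 (SE 0.38) through CTX_HCQ 2. Unfolded protein and integrated stress genes had 10 higher and 13 lower of 23 and a median of -0.04, which changed sign with the scaling. Trib3, a target of that response, stood at 0.582, 0.9704 and 1.06 against 1.33, 1.48 and 1.66 FPKM and was higher without overlap, while the sensor Atf6 at 11.2, 12.4 and 11.4 against 10.7, 6.03 and 8.97 FPKM and the serine synthesis enzyme Psat1 at 4.97, 5.19 and 4.43 against 3.998, 3.94 and 2.77 FPKM were lower without overlap. That is 1 higher and 2 lower of 23, against 3.23% and 3.07% of all genes. Creld2 differed by 0.39 (SE 0.32) through CTX_HCQ 2.

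Immediate early genes had 8 higher and 10 lower of 18 and a median of -0.11, or 0.28 without CTX_HCQ 3 and 0.17 with library weights. Nr4a2, a nuclear receptor, stood at 1.21, 1.74 and 1.54 against 1.83, 2.51 and 2.55 FPKM and was higher without overlap. Myc, a growth factor-induced transcription factor, stood at 40.7, 47.8 and 57.5 against 49.8, 26.8 and 22.1 FPKM, low in CTX_HCQ 2 and CTX_HCQ 3 only. Atf3 differed by 0.60 (SE 0.37) through CTX_HCQ 2 and Ier3 by -0.38 (SE 0.22). In the SOCS and JAK-STAT list there were 11 higher and 9 lower of 20, with a median of 0.05. Cish, a STAT5-induced inhibitor of cytokine signals, stood at 4.69, 4.07 and 3.31 against 10.1, 7.86 and 4.18 FPKM, a difference of 0.68 (SE 0.29) in which CTX_HCQ 1 was the highest library. Socs6, of the same family, stood at 3.08, 3.08 and 3.29 against 3.62, 3.69 and 4.19 FPKM and was higher without overlap, Socs1 differed by 0.32 (SE 0.28), carried by Control 3 and by CTX_HCQ 2, and Stat3 by -0.20 (SE 0.18).

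IGF and follicle growth factor genes had 16 higher and 10 lower of 26 and a median of 0.03, from -0.11 without CTX_HCQ 3 to 0.26 without Control 1. Groups did not overlap in 1 higher and 2 lower members, against 3.23% and 3.07% of all genes. Id3, Smad7 and Irs2 were not among these. Id3, a target of bone morphogenetic proteins, stood at 83.2, 60.3 and 61.3 against 79.8, 157 and 98.03 FPKM, with CTX_HCQ 1 inside the Control range. Smad7, an inhibitor of the same receptors, stood at 6.44, 6.87 and 6.84 against 10.7, 6.74 and 12.01 FPKM, high in CTX_HCQ 1 and CTX_HCQ 3. Irs2, an adaptor of the insulin and IGF receptors, differed by -0.44 (SE 0.23).

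Markers of other cells moved with particular libraries, in some lists with libraries of both groups. The 6 tested erythroid genes were all lower on average, with a median of -1.27, but Control 3 carried the list (-0.53 without it). The summed level of the list, untested members included, was 3316 FPKM in Control 3 and between 294 and 862 FPKM in the other 5 libraries. Hba-a1, an alpha globin gene with the near-identical copy Hba-a2, stood at 192, 353 and 1519 against 125, 329 and 127 FPKM, and Hbb-bs, a beta globin gene, at 235, 375 and 1490 against 150.2, 418 and 142 FPKM. Alas2, the erythroid enzyme of haem synthesis, stood at 4.73, 8.35 and 29.5 against 3.11, 3.86 and 3.69 FPKM and did not overlap, a difference of -1.38 (SE 0.54). The 11 smooth muscle and 11 endothelial genes had medians of 0.26 and 0.26, which turned to -0.21 and -0.12 without CTX_HCQ 2. The full lists of 12 and 14 genes, untested members included, had summed levels of 231 and 148 FPKM in CTX_HCQ 2. These were 178 and 118 FPKM in Control 1, and at most 81.02 and 61.4 FPKM elsewhere. Des, the muscle filament desmin, stood at 3.12, 2.197 and 2.52 against 2.28, 15.6 and 1.28 FPKM, and Plvap, of fenestrated vessels, at 3.94, 2.69 and 2.84 against 3.43, 13.4 and 4.03 FPKM. The part of these cells in the differences above was not tested.

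Fibroblast and stroma genes had 6 higher and 10 lower of 16, a median of -0.12, and 0.09 without CTX_HCQ 3. Cd34 and Fn1 are on this list, and Thy1, a stromal surface protein, differed by -0.48 (SE 0.26) through CTX_HCQ 3. Other endothelial markers did not follow Cd34: Kdr, a receptor of vascular endothelial growth factor, stood at 7.09, 3.94 and 4.26 against 5.51, 6.79 and 5.71 FPKM and Esam, an adhesion molecule, at 16.8, 12.1 and 10.7 against 13.9, 19.5 and 14.2 FPKM. Macrophage genes had 6 higher and 7 lower of 13 and a median of -0.05, which was 0.13 with library weights, with Cd68, a lysosomal glycoprotein of these cells, at 10.03, 10.8 and 8.78 against 8.88, 7.64 and 8.14 FPKM. Oocyte genes had 2 higher and 13 lower of 15 and a median of -0.18, which was 0.01 without Control 1. Nobox, an oocyte transcription factor, stood at 8.02, 6.45 and 5.43 against 4.59, 5.203 and 5.57 FPKM, and Zp1, of the egg coat, at 23.1, 13.8 and 13.9 against 12.7, 16.8 and 12.6 FPKM. Surface epithelium genes had 6 higher and 6 lower of 12 and a median of -0.01, with the sign changing under other scalings. Msln, mesothelin, stood at 36.7, 35.8 and 43.5 against 31.2, 26.3 and 30.3 FPKM without overlap, and Upk3b, a uroplakin, at 49.1, 50.3 and 64.8 against 52.2, 12.7 and 51.8 FPKM, low in CTX_HCQ 2 only. The 6 tested genes of oviduct and motile cilia had a median of -0.24, or 0.62 without Control 1 and 0.28 with library weights. The full list of 21, untested members included, had a summed level of 113 FPKM in Control 1 and 13.6 to 34.7 FPKM elsewhere. Adipocyte genes had 3 higher and 8 lower of 11 and a median of -0.11, or 0.08 without Control 1.

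**Figure D5:**
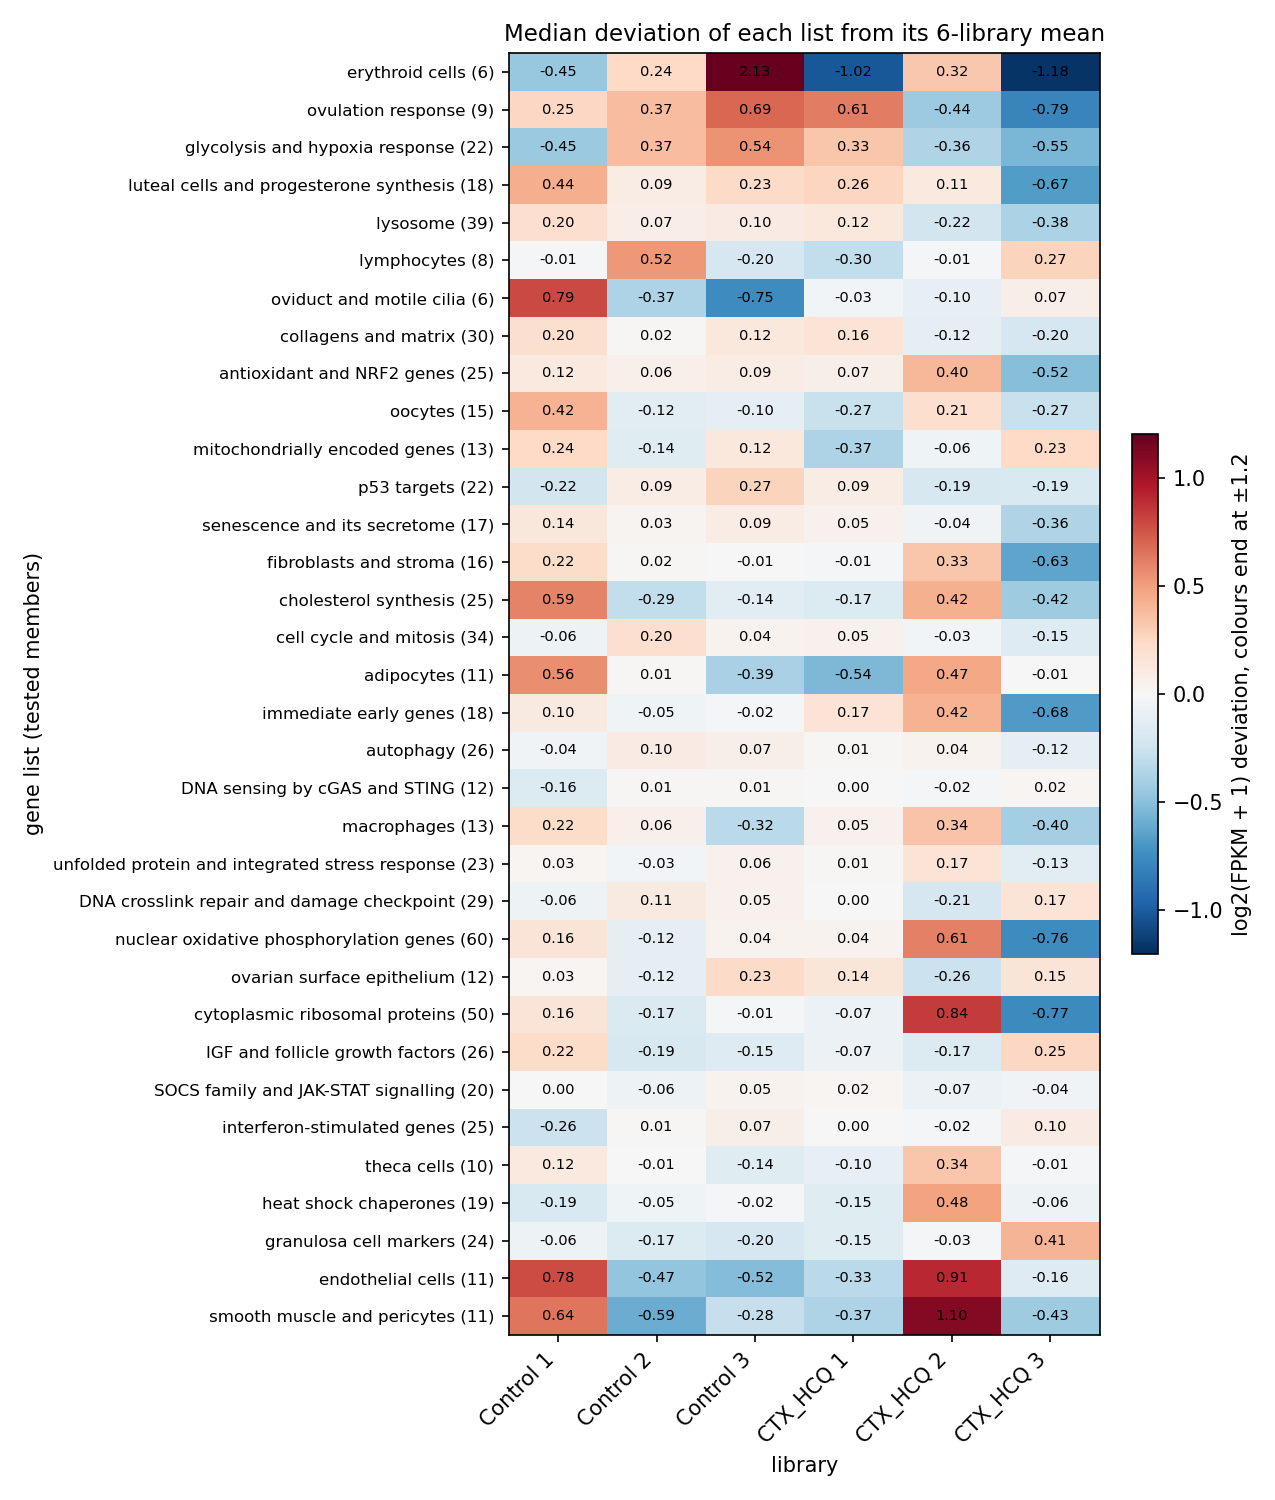
Median over the tested members of each list (rows, number of members in brackets) of the deviation from the gene's mean over the 6 libraries, in log2(FPKM + 1), for each library (columns). Red is above the mean and blue below. CTX_HCQ 1 has the sign of Control 2 and Control 3 for the glycolysis and ovulation lists, and the ribosomal row runs from 0.84 in CTX_HCQ 2 to -0.77 in CTX_HCQ 3.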

How the data were processed

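Polyadenylated RNA of mouse granulosa cells was sequenced, per the labels' protocols. The authors deposited 1 table of FPKM for 9 libraries. The submitters' processing notes name HISAT2 2.0.5 and fastp 0.23.2, then DESeq2 1.20.0 and featureCounts 1.5.0-p3, and the genome build GRCm39 (mm39). Roles, settings and strandedness are not given in the sources used here, so reads of overlapping or antisense genes cannot be told apart, and immunoglobulin segments, globin genes and other near-identical copies are uncertain. The annotation at hand was GENCODE M21, of another build, so it gave only symbols (for 52073 of 56748 identifiers) and exon lengths. With these lengths whole reads were recovered, within 0.02 reads, for 12979 of the 13727 tested genes.

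Genes with at least 1 FPKM in at least 3 of the 6 libraries entered limma 3.58.1 (R 4.3.3) as log2(FPKM + 1), with a variance trend on mean level and Benjamini-Hochberg adjustment over all 13727 genes at a threshold of 0.05. Only the 6 libraries of both groups were fitted, with no covariate. Scripts were tested on simulated data. No 2 libraries agreed within sampling noise: chi-square per degree of freedom of recovered reads was at least 16.1. Recovered reads are a part of the depth. The library sizes behind the FPKM ran from 15344526 in CTX_HCQ 3 to 17943266 in Control 2. Recovered reads made up a fraction of 0.8715 of this size in CTX_HCQ 3 and 0.9549 to 0.9802 in the other 5 libraries. The number of libraries limits the precision.

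Members and the 34 gene lists were chosen with earlier results of these data known. Genes named were, in each direction, the 12 of smallest p with a mean of at least 5 FPKM, the 6 largest differences without overlap and the 5 largest with overlap at a mean of at least 5 FPKM, up to 4 members of smallest p in each list, and 19 fixed genes. Genes with no symbol, predicted genes, small RNAs and immunoglobulin genes were left out of the first 3 parts, and Ighm, Iglc1 and a few other genes given as members of a list were named after their values were seen. Some members of the lysosome list and others that the rule allows are not reported here. A planned search for promoter motifs was not run. No list test was run. The counts of list members describe the lists and cannot serve as tests, since the lists were chosen with earlier results known. Alternatives covered the pseudocount, filter, scaling, library weights, variance trend, samples in the fit, replicate block, voom and each library left out, and 2 more, scaling to recovered totals and removal of the length trend, were chosen after seeing the data.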

Additional observations from a re-analysis of the deposited data

How the results depend on the processing

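All 20 alternatives gave 0 genes at an adjusted p under 0.05, with a smallest adjusted p by limma of 0.0684 under library weights. Genes at an unadjusted p under 0.05 by limma numbered 269, and 702 with no filter on low values, 119 with a mean FPKM of at least 5 and 995 with library weights, and they ran from 118 to 991 with each library left out. With library weights the list medians were 0.166 for luteal genes, 0.021 for DNA sensing, 0.006 for lysosome and -0.069 for matrix genes. The lymphocyte median was 0.841 with a mean FPKM of at least 5, a filter that leaves fewer members. With each library left out, medians ran from -0.510 to 0.620 for cilia, -0.041 to 0.041 for DNA sensing, -0.139 to 0.053 for autophagy, -0.038 to 0.073 for SOCS genes and -0.111 to 0.260 for growth factors. The cause was not tested. The other values moved by less than the spread between libraries: 668 of 679 list medians and 3490 of 3553 values of named genes, although 68 and 31 of them changed sign. Scaling to recovered totals, chosen after seeing the data, took the median of all genes from -0.014 to 0.028, and the scalings together changed the sign of the surface epithelium, respiratory chain, stress response and crosslink repair medians.

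Replicate numbers did not pair the libraries: deviations from the group means correlated across genes at -0.423, -0.260 and -0.136 for numbers 1, 2 and 3, and no library correlated best with its own number. With the replicate block 0 genes passed, and 186 had an unadjusted p under 0.05 by limma. With 13372028 to 17133872 recovered reads, a part of the depth, low genes such as Cdkn2a, at 1 to 18 reads, were left without a readable difference.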

Other observations

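A further set of genes, chosen after their values were seen, also had large differences and overlapping groups. Prss35, a secreted serine protease-like protein of follicles, stood at 269, 872 and 1036 FPKM in Control and 746, 159 and 86.4 FPKM in CTX_HCQ, a log2 difference of -1.52 (SE 0.84). Ptgs1, a cyclooxygenase that starts prostaglandin synthesis, stood at 3.41, 25.7 and 39.6 FPKM in Control and 14.9, 2.36 and 2.85 FPKM in CTX_HCQ, a difference of -1.51 (SE 0.90). Cemip, a hyaluronan-binding protein, stood at 49.8, 72.02 and 94.7 FPKM in Control and 88.9, 13.2 and 15.8 FPKM in CTX_HCQ, a difference of -1.35 (SE 0.67). In all 3 CTX_HCQ 1 lay between Control 1 and Control 3, and CTX_HCQ 2 and CTX_HCQ 3 lay below every Control library. Hsd17b7, an enzyme of cholesterol and oestradiol synthesis, stood at 163, 10.7 and 13.3 FPKM in Control and 16.5, 133 and 59.1 FPKM in CTX_HCQ, a difference of 0.79 (SE 1.101), with Control 1 and CTX_HCQ 2 high. All have an adjusted p of 0.9999 by limma.

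Other lower genes were carried by CTX_HCQ 3. Plin5, a lipid droplet protein, stood at 34.5, 29.8 and 35.3 FPKM in Control and 37.3, 17.6 and 2.97 FPKM in CTX_HCQ, and its difference of -1.27 (SE 0.72) was -0.35 without CTX_HCQ 3. Bhmt, which remethylates homocysteine, stood at 16.3, 15.8 and 22.8 FPKM in Control and 22.96, 8.62 and 0.487 FPKM in CTX_HCQ, a difference of -1.45 (SE 0.88) and -0.33 without that library. The groups overlapped in each gene through CTX_HCQ 1.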
